A study of Mus musculus with 6 samples.

Results

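The histone genes of mouse LT/ST-HSCs were compared between Ltbr-/- and Ly5.1 cells. Members were chosen by gene symbol (Hist1h to Hist4h, H2af, H3f3a, H3f3b and H1f, without pseudogene symbols), which gave 81 of the 26216 symbols in the files. Of these, 68 are counted as clustered histone genes and 13 as variant genes. Hist1h2al, 1 of the 68, was kept by its symbol but is annotated as a processed pseudogene (chr13:51202727-51203065). It has no coding transcript, so it counts below as a gene without stem-loop or hexamer. Cells came from mixed chimeras at 6 weeks after transplantation and were purified by FACS. LSKs of Ltbr-/- donors (CD45.2) and of congenic Ly5.1 donors (CD45.1) had been transplanted together into Ly5.1/Ly5.2 mice after lethal irradiation. Ltbr-/- cells carry a homozygous deletion within Ltbr, the gene of the lymphotoxin-β receptor, and Ly5.1 cells have an intact Ltbr. Both groups thus shared the irradiated host, and the mutation was limited to the donor cells. Cells of 6 chimeras were pooled to 3 replicates for each genotype. The donors of the Ltbr-/- replicates were 13, 10 and 10 to 13 weeks old and those of each Ly5.1 replicate 7 to 13 weeks old, so that the donor ages of the genotypes differed in part.

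Histones package DNA into nucleosomes, each built from pairs of H2A, H2B, H3 and H4, with H1 bound to the linker DNA. The clustered genes are transcribed mainly in S phase, and their mRNAs usually end in a stem-loop in place of a poly(A) tail. Variant genes mostly lie outside the large histone clusters, and many are transcribed throughout the cell cycle as polyadenylated mRNAs. Some supply histones such as H2A.Z and H3.3 that are exchanged into chromatin outside replication.

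The 3′ ends of the transcripts show how the classes differ, and are given because the libraries were made from mRNA with a poly(A)-selecting kit. Capitals mark the stem-loop core in the first 4 sequences and the AATAAA hexamer, the signal for poly(A) addition, in the others (GENCODE M21, GRCm38, strand of the transcript).
Hist2h2aa1 stem-loop: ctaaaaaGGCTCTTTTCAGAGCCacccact
Hist1h2bg stem-loop: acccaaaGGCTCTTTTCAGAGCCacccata
Hist1h4i stem-loop: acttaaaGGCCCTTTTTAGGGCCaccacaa
Hist1h1c stem-loop: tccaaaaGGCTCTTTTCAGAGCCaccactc
Hist1h1c hexamer: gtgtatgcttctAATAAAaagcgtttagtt
H2afj hexamer: gcaaaaaggacaAATAAAgaatatattaca
H2afv hexamer: caaatgcacagaAATAAAgaaactagcact
H2afz hexamer: gtggataagctcAATAAAggtcatatccc
H3f3b hexamer: ataggccttacaAATAAActagtaagtttg
The stem-loop core, searched as a consensus of 16 bases on the transcript strand, was found in a transcript of 44 of the 68 clustered genes (64.7%) and of 1 of the 13 variant genes, H2afx. Of all 21901 protein-coding genes 0.329% held it. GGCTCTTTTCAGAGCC was the most frequent form, in 26 genes. The hexamer lay in the last 50 bases of a transcript of 14 clustered genes (20.6%) and of 9 variant genes (69.2%), against 65.7% of all protein-coding genes. Of the 44 clustered genes with the stem-loop core, 22 held it within the last 100 bases of the annotated transcript. Both elements were found in transcripts of 10 clustered genes, among them Hist1h1c, with 840 bases annotated after the stem-loop. A match describes these letters only, and its absence says nothing of how a transcript ends.

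The promoters of 62 clustered and 12 variant genes were searched for 3 motifs on both strands, from 250 bases before to 50 bases after the start (RefSeq, GRCm38.p6). None of the motifs contains another. TATAAA was present in 56.5% of the clustered and 8.33% of the variant promoters, against 15.7% of all 27025 promoters. CCAAT was present in 85.5% and 66.7%, against 41.1% of all. Every clustered H1, H2A, H2B and H3 promoter searched held CCAAT, but only 3 of 12 H4 promoters did. The octamer ATTTGCAT was found in 7 of 18 clustered H2A and 7 of 16 clustered H2B promoters and in no clustered H1, H3 or H4 promoter searched, against 1.97% of all promoters.

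The 68 clustered genes are 55 Hist1 genes, 10 Hist2 genes, 2 Hist3 genes and 1 Hist4 gene. By family they are 6 H1, 19 H2A, 18 H2B, 12 H3 and 13 H4 genes, and the variants are 4 H1, 7 H2A and 2 H3 genes. A pair of properties of the files limits what they can show. The deposited signal is a power of 2 of a regularized log value, which shrinks weakly expressed genes towards their mean, and many clustered genes are near-identical. Of 76-base windows, the length of the reads, 57 clustered genes shared 10% or more with another gene, against 2 variant genes, H2afb1 and H2afz. How the authors' counting split such reads is not given in the sources used here.

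The check of the labels came from Ltbr. Its signal was 24.2, 26.4 and 23.1 in the Ltbr-/- replicates and 564.0, 548.7 and 522.0 in the Ly5.1 replicates (log2 fold change -4.47, SE 0.08, limma adjusted p = 2.15e-32), which matched every label. All 9 HSC markers, such as Kit and Procr, were tested and had log2 fold changes below 0. Of these, Ly6a (-0.39) and Cd34 (-0.31) were lower at an adjusted p under 0.05, and the groups did not overlap for 6. Of all 13108 tested genes, 7029 had log2 fold changes below 0, and 10.6% were higher and 4.18% lower at that threshold. The groups did not overlap for 30.4% of all tested genes, with 13.5% lower. The summed signal of the 9 HSC markers was 16523 to 17152 in Ltbr-/- and 19051 to 19677 in Ly5.1 cells. All 5 neutrophil markers were lower in Ltbr-/- cells (summed signal 23752 to 23784 against 31443 to 34786), and 2 of 4 mast cell and basophil markers were higher (summed signal 7035 to 7421 against 3361 to 3972). In the erythroid list, summed at 2279 to 2537 against 1221 to 1567, 1 of 3 markers was higher, and in the B and plasma cell list, summed at 1097 to 1231 against 1968 to 2148, 1 was higher and 2 were lower of 3 tested. The part of these cells in the results below was not tested. In bulk RNA, fewer cells of a type and less RNA per cell cannot be told apart.

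Clustered histone genes were low in these libraries, which were made with a poly(A)-selecting kit. Since their mRNAs usually lack a poly(A) tail, part of that mRNA may have been missed, which was not tested. The levels thus describe captured mRNA only. The signal of the clustered genes in Ly5.1 cells had a median of 27.4 over the 68 genes, against 724.9 over the 13 variants. Per kb of the longest coding transcript, the median signal was 42.0 for clustered and 390.9 for variant genes. Hist1h1c, a linker histone gene, was the only clustered gene with a mean signal over 100. The 14 clustered genes with the hexamer had a median of 27.7 per kb, and the other 54 a median of 51.8. Before division by length, the median signals in Ly5.1 cells were close, at 25.8 and 27.5. In the plot of levels by family, H3 and H4 genes had the lowest medians of the clustered families.

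**Figure D1:**
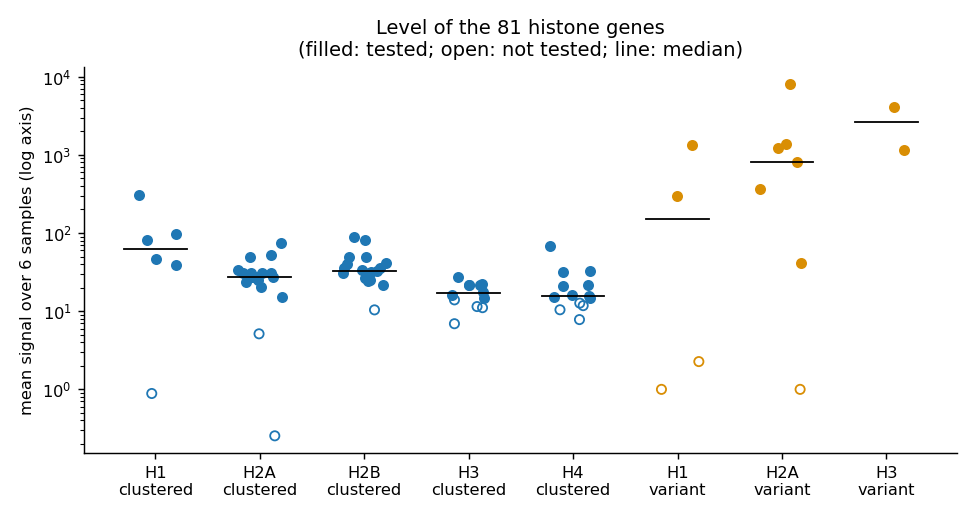
Mean signal over the 6 samples (log axis) of each of the 81 histone genes by family, with filled points for tested genes, open points for genes not tested and a line at the median. Clustered genes lie mostly between 10 and 100, whereas most tested variants lie above 100 and reach 8020.

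Of the 81 genes, 66 lay in the upper 50% of all genes by mean and were tested, 56 clustered and 10 variant. The 15 others were 12 clustered genes and the variants H1fnt, H1foo and H2afb1, of which H1foo and H2afb1 had the same value in all samples. Just below the limit lay Hist2h3b (mean signal 14.0) and just above it Hist1h3b (14.9). The untested clustered genes included the testis genes Hist1h1t, at 0.88 to 0.90, and Hist1h2aa, at 0.25 in every sample.

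Of the variant histone genes, H2afj, H2afv and H2afz had log2 fold changes above 0 in all 16 alternatives to the fit as well. An adjusted p under 0.05 was kept by H2afj in all 16, by H2afv in 7 and by H2afz in 6. H2afj, H2afv and H2afz were higher in Ltbr-/- cells at an adjusted p under 0.05, 3 of 10 tested variants, and no variant was lower. Of all 13108 tested genes, 14.8% passed that threshold, 10.6% higher and 4.18% lower. Among the 7005 tested genes at the level of the variants other than H2afy2 (mean signal 294.2 to 7999), 20.9% passed and 14.7% were higher, beside 3 of these 9 variants. With a fold of at least 1.5 as a further requirement, H2afj alone was called, against 2.78% of all tested genes (2.72% higher and 0.061% lower). The median log2 fold change of the tested variants was 0.08, against -0.01 over all tested genes.

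H2afj encodes H2A.J, an H2A variant that differs from canonical H2A mainly at its C-terminus. The gene lies on chromosome 6 (chr6:136808244-136810074, plus strand) and shared none of its 76-base windows with other genes. Its signal was 1455, 1706 and 1699 in Ltbr-/- cells and 733.2, 769.9 and 1085 in Ly5.1 cells. The lowest Ltbr-/- value lay above the highest Ly5.1 value, which came from replicate 3. The means were 1620 ± 143 (SD, n = 3) and 863 ± 193 (SD, n = 3), a fold of 1.90 (log2 0.93, SE 0.11, 95% interval 0.71 to 1.14, limma adjusted p = 9.83e-09). Per kb in Ly5.1 cells H2afj stood 6th among the tested variants, at 471 against 885 in Ltbr-/- cells.

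H2afj lies 11.49 Mb from Ltbr, the deleted gene (chr6:125306571-125313885), and 3.83 kb from the clustered gene Hist4h4. Hist4h4 was too low to be tested, with a signal of 7.79, 7.82 and 7.79 in Ltbr-/- and 7.72, 7.98 and 7.76 in Ly5.1 cells. Of the 11 other tested genes within 1 Mb of H2afj, chosen after its value was seen, 0 had an adjusted p under 0.05 by limma. Their log2 fold changes ran from -0.22 to 0.20, so that H2afj stood apart from its neighbours in size.

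H2afv and H2afz encode the H2A.Z proteins, which mark nucleosomes at promoters. H2afv (chr11:6427229-6444443) had a signal of 1462, 1564 and 1532 in Ltbr-/- and 1268, 1122 and 1411 in Ly5.1 cells. The groups did not overlap, but Ltbr-/- replicate 1 and Ly5.1 replicate 3 were close. The fold was 1.20 (log2 0.27, SE 0.09, 95% interval 0.09 to 0.45, limma adjusted p = 0.0372). This call was lost in 9 of 16 alternatives, in 5 of them by leaving out 1 sample (every sample except Ly5.1 replicate 3). In these 5 the log2 fold change was 0.29, 0.25 and 0.26 without Ltbr-/- replicate 1, 2 and 3, 0.27 without Ly5.1 replicate 1 and 0.18 (adjusted p = 0.223) without Ly5.1 replicate 2.

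H2afz (chr3:137864487-137866922) had a signal of 900.4, 873.2 and 845.1 in Ltbr-/- and 609.9, 795.4 and 769.3 in Ly5.1 cells. The groups did not overlap, and Ly5.1 replicate 1 was the lowest sample. The fold was 1.21 (log2 0.28, SE 0.10, 95% interval 0.08 to 0.47, limma adjusted p = 0.0464). Without Ly5.1 replicate 1 the log2 fold change was 0.16 (adjusted p = 0.343), and the call was lost in 10 of 16 alternatives. Leaving out an Ltbr-/- replicate also ended it, at log2 fold changes of 0.25 to 0.30. The gene's windows were shared with Gm8203, a processed pseudogene on chromosome 6 (chr6:116173737-116174123), singled out after its value was seen. All 312 windows of Gm8203 occur in H2afz transcripts. Its signal was 8466, 8611 and 8906 in Ltbr-/- and 6840, 7041 and 6871 in Ly5.1 cells, far above that of H2afz, without overlap between the groups (log2 fold change 0.32, SE 0.07, limma adjusted p = 3.65e-04). Reads of the 2 genes within these windows cannot be told apart.

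**Figure D2:**
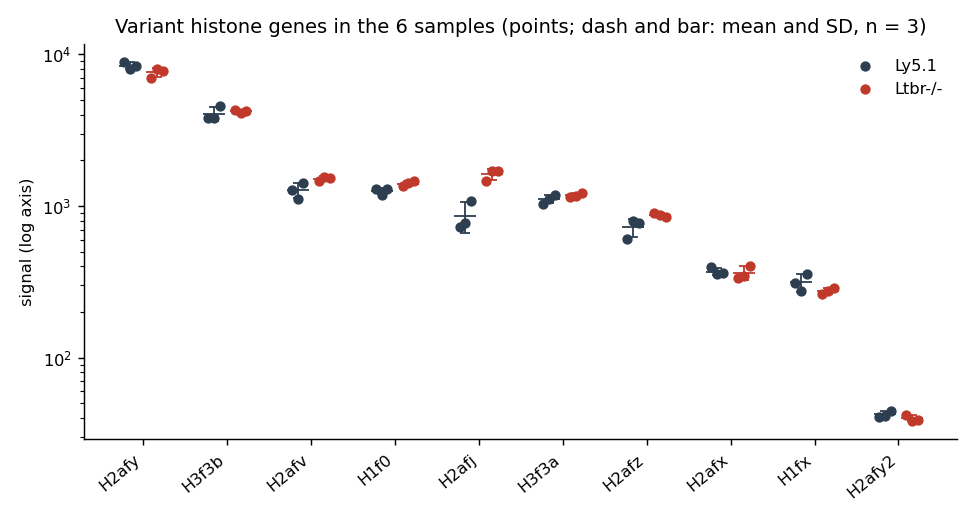
Signal (log axis) of the 10 tested variant genes in each of 3 Ly5.1 and 3 Ltbr-/- samples, as points, with the mean and SD beside them. H2afj shows the widest gap, from at most 1085 in Ly5.1 to at least 1455 in Ltbr-/- cells.

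The other H2A variants did not pass the test. H2afy encodes macroH2A1, a large variant of silent chromatin, and had the highest deposited signal per kb of the variants (4118 in Ly5.1 cells). Its signal was 7002, 8019 and 7824 in Ltbr-/- and 8920, 7996 and 8362 in Ly5.1 cells, with overlap between the groups. The log2 fold change was -0.15 (SE 0.07, limma adjusted p = 0.163), but -0.44 (adjusted p = 3.06e-06) after quantile normalization and -0.21 (adjusted p = 0.00705) once a trend over transcript length and GC content was removed. H2afy2, which encodes macroH2A2, was the lowest of the tested variants, at 41.9, 38.5 and 39.0 against 40.8, 41.4 and 44.8 (log2 -0.09, SE 0.06). H2afx, whose product is phosphorylated at DNA breaks, had 335.6, 345.1 and 405.3 against 394.3, 354.8 and 360.6 (log2 -0.03, SE 0.10). Neither gene separated the groups.

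H3f3a and H3f3b encode the same H3.3 protein. H3f3a had a signal of 1153, 1172 and 1221 in Ltbr-/- and 1040, 1115 and 1177 in Ly5.1 cells. H3f3b had 4280, 4115 and 4264 against 3790, 3831 and 4543. Both overlapped between the groups, with log2 fold changes of 0.09 (95% interval -0.08 to 0.27) and 0.06 (95% interval -0.09 to 0.22).

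The replication-independent linker genes gave values on either side of 0. H1f0, the gene of H1.0, which accumulates in resting and differentiated cells, had 1353, 1411 and 1456 in Ltbr-/- and 1289, 1189 and 1306 in Ly5.1 cells. These groups did not overlap, yet the log2 fold change of 0.16 (SE 0.08) had a limma adjusted p of 0.227. H1fx had 264.8, 277.5 and 289.1 against 311.5, 273.4 and 358.6, with overlap (log2 -0.17, SE 0.10, adjusted p = 0.257). With the trend over length and GC content removed it was lower (log2 -0.29, adjusted p = 0.0241). In all, 4 of 10 tested variants did not overlap between the groups, against 30.4% of all tested genes.

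By signal per kb in Ly5.1 cells the tested variants ranked H2afy, H3f3b, H2afv, H2afz, H1f0, H2afj, H3f3a, H2afx, H1fx and H2afy2. This order holds for the deposited signals. The place of H2afz is uncertain, since its reads cannot be told from those of Gm8203 (mean signal 6917 in Ly5.1 cells). The ranges over replicates separated H2afy, H3f3b and H2afy2 from their neighbours and H3f3a from H2afx. From H2afv to H3f3a each gene overlapped the next, as did H2afx and H1fx, so that their order was not resolved.

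**Figure D3:**
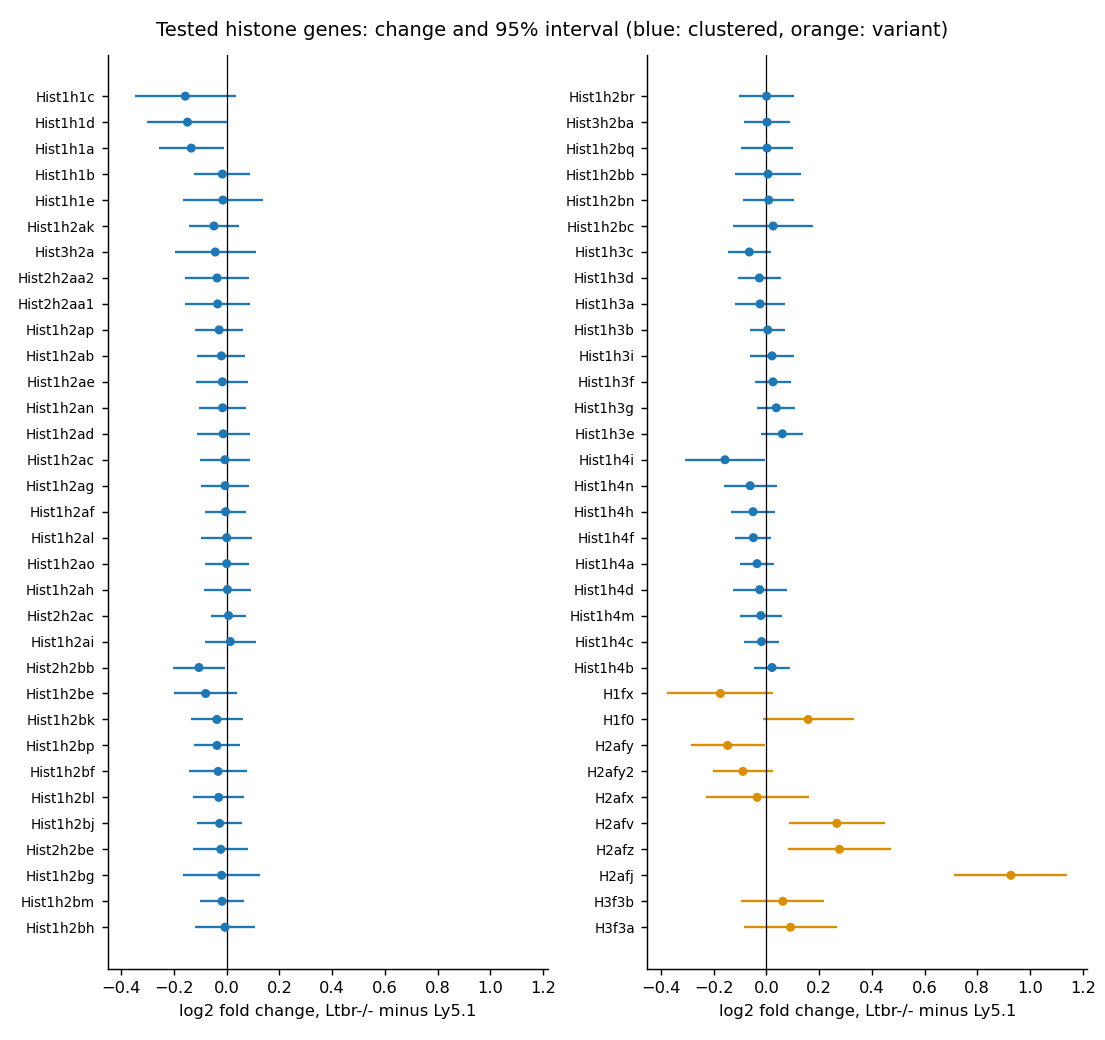
Log2 fold change (Ltbr-/- minus Ly5.1) with its 95% limma interval for the 66 tested histone genes, sorted by family, clustered in blue and variant in orange. Only H2afj, H2afv and H2afz have intervals wholly above 0, and H2afj reaches 0.93.

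No clustered gene passed the test. By limma, 0 of 56 tested clustered genes had an adjusted p under 0.05, and 3 (Hist1h1a, Hist2h2bb and Hist1h4i, named here after their values were seen) had an unadjusted p under 0.05, all lower, against 27.1% of all tested genes at that level and 11.4% that were also lower. The median log2 fold change was -0.02, with a range from -0.16 to 0.06, beside -0.01 for all tested genes. It was -0.02 as well over all 68 clustered genes. No 95% interval reached below -0.35 or above 0.18. The groups did not overlap for 10 of 56 genes, 2 higher and 8 lower, against 30.4% of all tested genes.

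These small changes were measured at levels where few genes pass. Of the 56 genes, 55 had a mean signal under 100, and of all 3106 tested genes under that level 4.57% had an adjusted p under 0.05. Over the whole range of means of the clustered genes, from 14.9 to 309.3, the share was 6.21%. The largest sample exceeded the smallest by less than 10% in 43 of the 56 genes, and was at most 1.27 times the smallest in any. Shrinkage draws such values together, so that the intervals bound the deposited values and not the change in mRNA. They also cover only the mRNA captured by the poly(A)-selecting kit.

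**Figure D4:**
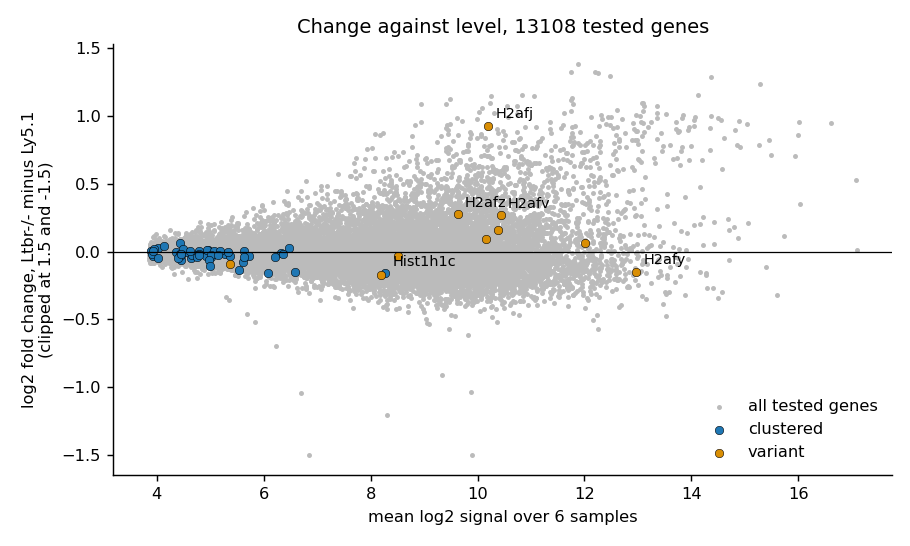
Log2 fold change (Ltbr-/- minus Ly5.1, clipped at 1.5 and -1.5) against the mean log2 signal for the 13108 tested genes in grey, with clustered histone genes in blue and variants in orange. Clustered genes sit at the low end, where all genes spread little, and H2afj stands at 0.93 among well expressed genes.

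H1 genes, which encode the linker histones, were the highest clustered family. Hist1h1c had a signal of 282.3, 284.6 and 312.9 in Ltbr-/- and 351.4, 320.9 and 308.8 in Ly5.1 cells. The groups overlapped by 1 value (log2 -0.16, SE 0.09, limma adjusted p = 0.289). Hist1h1d had 94.0, 88.4 and 92.3 against 101.0, 102.8 and 100.6, and its groups did not overlap (log2 -0.15, SE 0.08, adjusted p = 0.203). Hist1h1a, with the smallest adjusted p of the clustered genes (0.145), had 44.1, 46.6 and 42.2 against 45.7, 51.8 and 48.3. All 5 tested H1 genes had values below 0, with a median of -0.13.

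Core histone families had medians closer to 0. The highest H2A genes were Hist3h2a, at 68.8, 76.9 and 72.0 against 66.8, 77.6 and 80.5, and Hist2h2aa1, at 53.7, 50.9 and 51.5 against 54.4, 52.3 and 53.2. The highest H2B genes were Hist1h2bc, at 89.6, 86.2 and 94.4 against 87.9, 87.9 and 89.4, and Hist1h2bg, at 83.1, 79.4 and 81.1 against 81.3, 85.3 and 80.3. All of these groups overlapped. The median log2 fold change was -0.01 for 17 tested H2A genes and -0.02 for 17 H2B genes.

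Among H3 genes Hist1h3a was highest, at 26.4, 28.9 and 26.8 against 27.4, 28.2 and 27.8, followed by Hist1h3i, at 22.6, 22.6 and 22.3 against 22.2, 22.9 and 21.6. Among H4 genes Hist1h4i had 60.4, 72.8 and 60.3 against 76.7, 68.1 and 70.5 (log2 -0.16, SE 0.07, limma adjusted p = 0.169), and Hist1h4d had 33.1, 30.4 and 32.8 against 33.1, 31.3 and 33.7. All 4 genes overlapped between the groups. Without Ltbr-/- replicate 2, the only high Ltbr-/- sample, Hist1h4i passed (log2 -0.25, adjusted p = 0.0308). The median was 0.01 for 8 tested H3 genes and -0.04 for 9 H4 genes. Hist1h4i shared 21.9% of its windows with other genes.

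The count of clustered genes depended on a correction for transcript length and GC content. That fit subtracts from each sample a smooth trend over the length and GC content of 11699 genes. In it, 45 of the 56 clustered genes were lower at an adjusted p under 0.05 and 0 higher, with a median of -0.24. Of all 11699 genes, 991 were higher and 901 lower. The trend was subtracted in full from genes of low signal as well, whose deposited values are shrunken. The share of genes under a mean signal of 100 that passed rose to 18.0%. No clustered gene reached a fold of 1.5 with it. Of the calls over all genes by adjusted p, 71.7% were higher as deposited, 57.7% after quantile normalization and 52.4% after the correction. With quantile normalization or median centring 0 clustered genes passed.

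**Figure D5:**
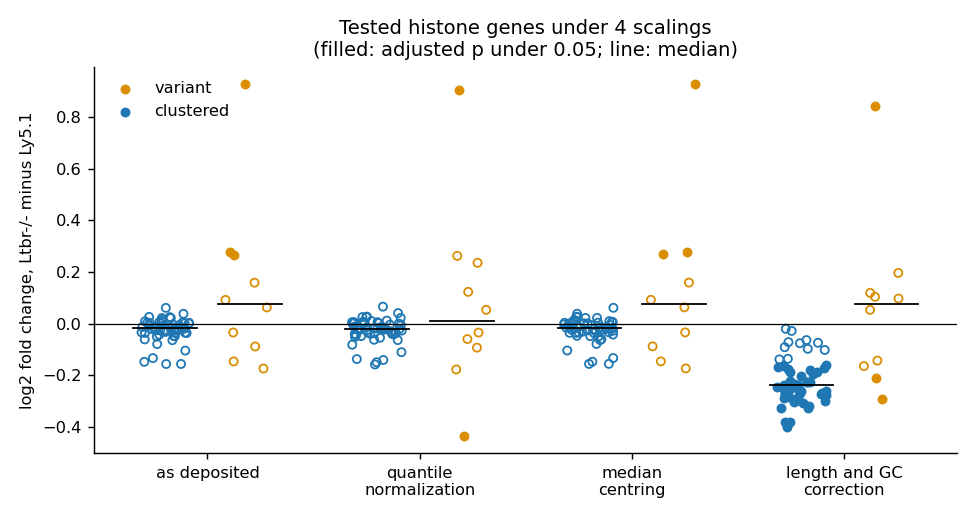
Log2 fold change (Ltbr-/- minus Ly5.1) of tested clustered (blue) and variant (orange) genes as deposited and after 3 rescalings, filled where the adjusted p was under 0.05, with a line at the median. The clustered median falls from -0.02 to -0.24 after the length and GC correction, while H2afj stays the highest point in all 4.

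Genes that make and degrade histone mRNA were examined beside the members. Of 34 such factors, all tested, 3 were higher and 2 lower at an adjusted p under 0.05, and 0 reached a fold of 1.5. This count of 5 of 34 is close to the 14.8% of all tested genes that passed, so it is no result about these factors, whose median was -0.03 on the log2 scale. The 3 that rose are among 5 listed genes of Sm proteins, which the U7 particle of histone mRNA processing shares with spliceosomal particles. The other two, Snrpd3 (log2 0.15, adjusted p = 0.246) and Snrpe (log2 0.06, adjusted p = 0.757), overlapped between the groups. Snrpb had a signal of 4895, 4768 and 5187 in Ltbr-/- and 3945, 3535 and 3944 in Ly5.1 cells (log2 0.38, SE 0.07, limma adjusted p = 2.35e-04). Snrpf (log2 0.35) and Snrpg (log2 0.31) rose likewise. Upf1, an RNA helicase needed for histone mRNA decay, fell by 0.28 on the log2 scale (SE 0.08, adjusted p = 0.00934). Nfya, a subunit of the factor that binds CCAAT, fell by 0.29 (SE 0.09, adjusted p = 0.0242). Groups did not overlap for any of these 5 genes. Leaving out 1 sample, which changed the number of all genes that passed from 1936 to between 1253 and 1999, ended some of these calls. Upf1 was lost without Ltbr-/- replicate 2 (log2 -0.25, adjusted p = 0.0668), and Nfya without that sample (log2 -0.21, adjusted p = 0.202) or Ly5.1 replicate 1 (log2 -0.23, adjusted p = 0.138). Snrpf was lost without Ltbr-/- replicate 3 (log2 0.31, adjusted p = 0.073) or Ly5.1 replicate 2 (log2 0.28, adjusted p = 0.0835). Snrpg was lost without Ltbr-/- replicate 2 or 3 or Ly5.1 replicate 1 or 2, at log2 fold changes of 0.25 to 0.31. Snrpb kept its call throughout. Slbp, which binds the stem-loop, was at -0.16 on the log2 scale (adjusted p = 0.229), and Npat, the activator of the clusters, at -0.19 (adjusted p = 0.162). Both were singled out for their role, after their values were seen.

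Histone chaperones and exchange factors gave 4 higher and 5 lower genes of 38 tested, with 0 at a fold of 1.5 and a median of -0.06. Of all tested genes, 10.6% were higher and 4.18% lower at this threshold. Nap1l1, an H2A-H2B chaperone, had 3679, 3756 and 3984 in Ltbr-/- and 2550, 2549 and 2686 in Ly5.1 cells (log2 0.55, SE 0.08, limma adjusted p = 5.80e-07). Npm1, a nucleolar chaperone, had 6385, 6464 and 6507 against 4402, 4720 and 4645 (log2 0.49, SE 0.07, adjusted p = 9.72e-07). In both genes the groups lay far apart. Nap1l4, of the same family as Nap1l1, fell by 0.23 (SE 0.08, limma adjusted p = 0.0446). Dek fell by 0.26 (SE 0.08, limma adjusted p = 0.0220), and neither gene overlapped between the groups. Ruvbl2, an ATPase of the complexes that deposit H2A.Z, rose by 0.48 (SE 0.07, adjusted p = 4.64e-06), and Znhit1, a subunit of the SRCAP complex, by 0.34 (SE 0.09, adjusted p = 0.00820). Srcap itself, the ATPase of that complex, fell by 0.23 (SE 0.07, adjusted p = 0.0260) without overlap, and Ep400, the ATPase of the related TIP60 complex, was at -0.20 (adjusted p = 0.0680). Ruvbl1 was at 0.04 (limma adjusted p = 0.832). Srcap, Ep400, Nap1l4, Dek and Ruvbl1 were named after their values were seen, and their fits without single samples are not given here. Ubn1, a subunit of the HIRA complex for H3.3, fell by 0.32 (SE 0.09, adjusted p = 0.0110), and Atrx, which acts with Daxx on H3.3, fell by 0.29 (SE 0.09, adjusted p = 0.0218). The groups of Atrx overlapped, and those of Ubn1 did not. Leaving out 1 sample ended the calls of Znhit1 (Ltbr-/- replicate 2 or Ly5.1 replicate 2, log2 0.30 and 0.29), Ubn1 (Ltbr-/- replicate 2 or Ly5.1 replicate 1, log2 -0.29 and -0.22) and Atrx (Ltbr-/- replicate 3 or Ly5.1 replicate 2, log2 -0.18 and -0.20).

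S phase genes were examined because clustered histone genes are transcribed in S phase. Of 36, all tested, Dut rose and Pola1 and Clspn fell at an adjusted p under 0.05, with 0 at a fold of 1.5 and a median log2 fold change of -0.10. These 3 of 36 are a smaller share than the 14.8% of all tested genes that passed. Dut, which removes dUTP, had 2175, 1943 and 2130 in Ltbr-/- and 1723, 1647 and 1650 in Ly5.1 cells (log2 0.31, SE 0.08, limma adjusted p = 0.00624). Pola1, a subunit of DNA polymerase α, fell by 0.29 (SE 0.09, adjusted p = 0.0294), and Clspn, a checkpoint adaptor, by 0.26 (SE 0.09, adjusted p = 0.0407). The calls of Pola1 and Clspn were each lost without Ltbr-/- replicate 1 or 3 or Ly5.1 replicate 1 or 2 and then had log2 fold changes of -0.18 to -0.30 and of -0.23 to -0.25. After quantile normalization 11 of the 36 had an adjusted p under 0.05, beside 1246 higher and 914 lower of all 13108 tested genes in that fit.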

How the data were processed

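LT/ST-HSC mRNA libraries (TruSeq Stranded mRNA, Illumina NextSeq, single reads of 76 bases) were aligned by the authors with SeqMan NGen and quantified with ArrayStar (version 16). The values deposited are a signal per gene, 2 to the power of a regularized log, for which the submitters' processing notes name DESeq2 and the builds GRCm38 and mm10. No counts are in the files used here, so depth is unknown, and precision rests on 3 replicates per group. The p-values and intervals use the spread between these pooled replicates, which limma draws towards that of other genes of similar level. They thus rest in part on other genes. For H2afj the limma adjusted p was 9.83e-09 with this dependence on level and 5.70e-04 without it (eBayes without a trend).

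From these values, a repeated symbol was represented by its entry of highest mean. The log2 signal of the 13108 genes in the upper 50% by mean was fitted with limma 3.58.1 (lmFit, eBayes with a trend, R 4.3.3) with Benjamini-Hochberg adjustment over all of them. No pseudocount was added, since the smallest value fitted was 13.9. A call needed a fold of 1.5 or more and an adjusted p under 0.05. The script was tested on simulated data with known changes. Lengths, shared windows and 3′ ends came from GENCODE M21. The members and gene lists were chosen with earlier results of these data known. Named were Ltbr, members with adjusted p under 0.05, the tested variants, the 2 highest tested genes of each clustered family, and up to 6 genes per list with adjusted p under 0.05 by size of change. Of the 40 chaperones 2 symbols did not match, nor did Jchain, Adgre1, Hbb-bs and Hbb-bt among the markers. The T and NK cell list (summed signal 56.1 to 57.3 in Ltbr-/-, 55.6 to 58.9 in Ly5.1), the monocyte list (1081 to 1300 against 1387 to 1528) and the progenitor list (727 to 892 against 922 to 955) were also summed. Replicate numbers came from the labels, which do not state that a number marks shared recipients. Alternatives were other scalings, filters, variance models and thresholds, a loess correction for length and GC content (span 0.3), the replicate block and leaving out each sample.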

Additional observations from a re-analysis of the deposited data

How the results depend on the processing

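H2afj kept its direction and an adjusted p under 0.05 in all 16 alternatives to the fit, with log2 fold changes from 0.82 to 1.10. It was the 1 variant called except at a fold of 2, where 0 were. With no fold threshold 3 variants, 5 mRNA factors, 9 chaperones and 3 S phase genes counted as called. At adjusted p under 0.05, 1 variant passed without the filter and 1 with eBayes without a trend (H2afj in both), and 2 passed after quantile normalization (H2afj and, gained there, H2afy). The cause was not tested. Quantile normalization gave 8 mRNA factors and 11 S phase genes, beside 1246 higher and 914 lower of all 13108 tested genes. The variant median was 0.0091 in that fit. No filter gave 1 S phase gene, beside 1184 higher and 355 lower of 17182 genes. The length and GC correction gave 45 clustered genes (median -0.24), turned Hist1h3i to -0.18 and called 1 chaperone, Nap1l1. The clustered median was -0.080 over the 6 tested genes with under 10% shared windows. Of these only Hist1h4d (log2 -0.025) and Hist2h2be (log2 -0.022) are core histone genes, and the others are H1 genes. Log2(signal + 1), added after seeing the data, changed none of these counts.

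Leaving out 1 sample at a time gave 0 to 1 clustered genes (Hist1h4i, without Ltbr-/- replicate 2), 1 to 3 variants, 2 to 6 mRNA factors, 5 to 11 chaperones and 1 to 4 S phase genes at adjusted p under 0.05. The median ran from -0.027 to -0.0075 for clustered and from 0.031 to 0.14 for variant genes. Whether samples with the same replicate number shared recipients is unknown. Deviations of same-numbered samples from their group means correlated at 0.031, -0.0052 and 0.090. With 3 samples per group, such values can neither show nor exclude pairing. With the replicate block 2 variants, 0 clustered genes, 5 mRNA factors, 10 chaperones and 4 S phase genes had an adjusted p under 0.05, and H2afz was at 0.0556. No clustered gene was in the upper 25% by mean, and an alternative for files of another unit was not run, since the files held a linear signal. Depth is unknown, and at the low signal of the clustered genes the shrunken values limit what could be detected.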
